A study of Arabidopsis thaliana with 20 samples.

Results

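Leaf transcripts of the Arabidopsis thaliana mutant ilp1-1 and of its wild type Col-0 were compared over 1 stretch of a high light treatment, the step from 4 h to 8 h. The quantity described is the change over that step in ilp1-1 minus the same change in Col-0, gene by gene. It rests on 8 of the 20 libraries of the series, 2 for each of ilp1-1 at 8 h, ilp1-1 at 4 h, Col-0 at 8 h and Col-0 at 4 h. The other 12 libraries, of 0, 16 and 30 h, entered the fit for its estimate of the spread between libraries. Both genotypes were treated alike, per the labels. Plants 4 weeks old, raised in days of 10 h light and 14 h dark, received 2 h of growth light at 100 µmol photons per square metre and second and then continuous high light at 500. The later harvest therefore came after 10 h of light, when the usual day ends, and the earlier one after 6 h. High light stayed on throughout the step, so that time in high light and time of day change together over it. The kind of mutation in ilp1-1 and whether replicates were separate plants or pools are not given in the labels, so the p-values speak for the spread between the sampled libraries and for no more.

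ILP1 is a spliceosome-associated protein that works with NTR1 in the release of introns and of stalled splicing complexes, and plants that lack it splice many transcripts poorly and have altered clock gene expression. Antenna proteins bind chlorophyll and pass light energy to the photosystems, and their nuclear genes are known to be turned down in strong light and to follow the time of day. The circadian clock of plants runs as a chain of repressors, with CCA1 and LHY in the morning, the PRR proteins through the day and the evening complex at dusk. Evening-phased genes often carry the evening element, which CCA1, LHY and related factors bind.

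The 8 libraries held between 12.2 and 15.7 M reads, as recovered from the deposited FPKM values (fragments per kilobase of gene, scaled to library size). All values below are FPKM, and differences are on log2(FPKM + 1), given ± SE of the fit. ILP1 itself (AT5G08550, chromosome 5, 2765642 to 2770282, minus strand, TAIR10) had 4.79 and 5.19 FPKM at 8 h and 4.67 and 5.03 at 4 h in ilp1-1, against 3.16 and 3.49 at 8 h and 3.32 and 2.91 at 4 h in Col-0. The transcript was thus not lower in the libraries labelled ilp1-1, whose values lay above those of Col-0 at both hours, and its step did not differ beyond the spread (difference -0.04 ± 0.25, adjusted p = 0.97). A level summed along the whole gene would include truncated RNA as well, and every direction given is that of the libraries as labelled. Antenna and Rubisco genes stood among the highest levels, as in leaf. Of 12 markers of meristem, flower, root and seed, 3 were at 0 in all 8 libraries, and 0 of the 3 that could be tested passed. The 9 guard cell markers, none of which passed, summed to between 63.2 and 95.1 FPKM in ilp1-1 and between 56.7 and 97.1 FPKM in Col-0. None of the 8 vascular markers passed, but the differences of all 8 were below 0, between -0.39 and -0.07 with a median of -0.31. They summed to between 121.9 and 124.7 FPKM in ilp1-1 and between 113.7 and 184.9 FPKM in Col-0, and their part in the results below was not tested. These marker lists are short and 3.88% of all genes tested passed, so 0 calls in them say little about the mix of cells. In RNA from whole leaves, fewer cells of a type and less RNA per cell cannot be told apart.

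Of 19311 genes tested, 749 (3.88%) had a step that differed between the genotypes at a Benjamini-Hochberg adjusted p under 0.05 in limma. A difference was called higher in 444 genes (2.3%), where the step in ilp1-1 lay above that in Col-0, and lower in 305 genes (1.58%). At an unadjusted p under 0.05 the count was 2951. Each of the 749 kept its sign in all 16 choices of 1 library a group, as did 15.2% of all genes upward and 15% downward. The 749 were picked for differences large against the spread of these same libraries. Their agreement in sign, also with 1 library left out, thus largely follows from the selection and is no separate support. The size was at least 2-fold in 181 of the higher and 77 of the lower genes, and the median difference of all genes tested was -0.01. With expression scaled to total reads the counts were 372 higher and 449 lower, so the balance between directions depends on the scaling, while 0 of the 749 genes changed sign. The total lay between 469 and 648 when any 1 of the 8 libraries was left out, at 469 without Col-0 8 h replicate 2, 485 without ilp1-1 4 h replicate 2, and 486 without ilp1-1 8 h replicate 1 or without Col-0 4 h replicate 1.

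Each genotype changed many transcripts over these hours. In ilp1-1, 2471 genes passed (12.8%), of which 1185 rose (6.14%) and 1286 fell (6.66%). In Col-0, 2581 genes passed (13.4%), of which 1218 rose (6.31%) and 1363 fell (7.06%). Among the 444 higher differences, the step was upward in ilp1-1 and downward in Col-0 in 227, downward in both in 151 and upward in both in 66. Among the 305 lower ones, it was downward in ilp1-1 and upward in Col-0 in 206, upward in both in 53 and downward in both in 42. Most differences in both directions thus joined steps of opposite sign. Both steps passed on their own in 45 genes that rose in ilp1-1 and fell in Col-0, and in 25 that fell in ilp1-1 and rose in Col-0. The larger step was that of ilp1-1 in 186 of the 444 and in 144 of the 305.

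**Figure D1:**
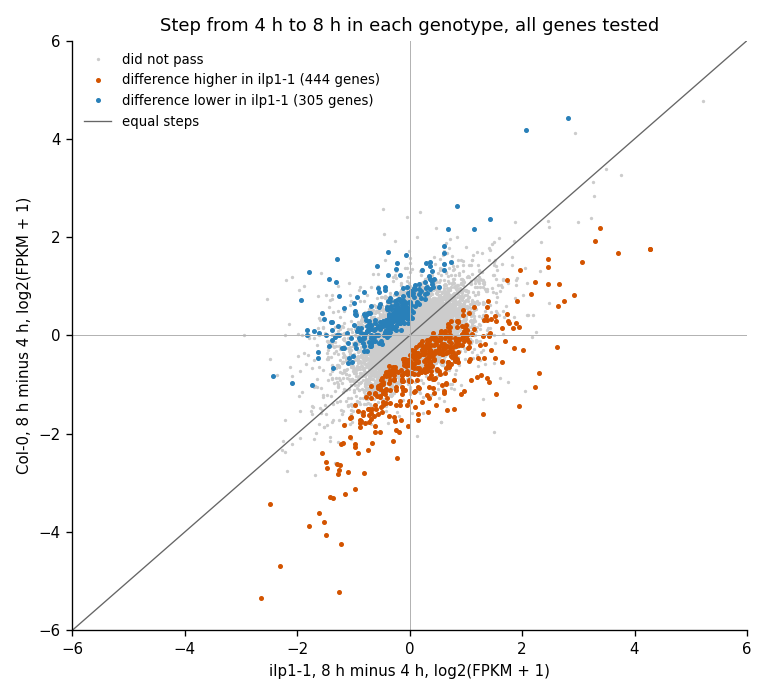
Step from 4 h to 8 h in ilp1-1 (x axis) and in Col-0 (y axis), each as the difference of log2(FPKM + 1), with 1 point for each of the 19311 genes tested. The 444 genes with a higher difference (orange) lie below the line of equal steps and the 305 with a lower one (blue) above it, many of them in the 2 quadrants where the steps have opposite signs.

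**Figure D2:**
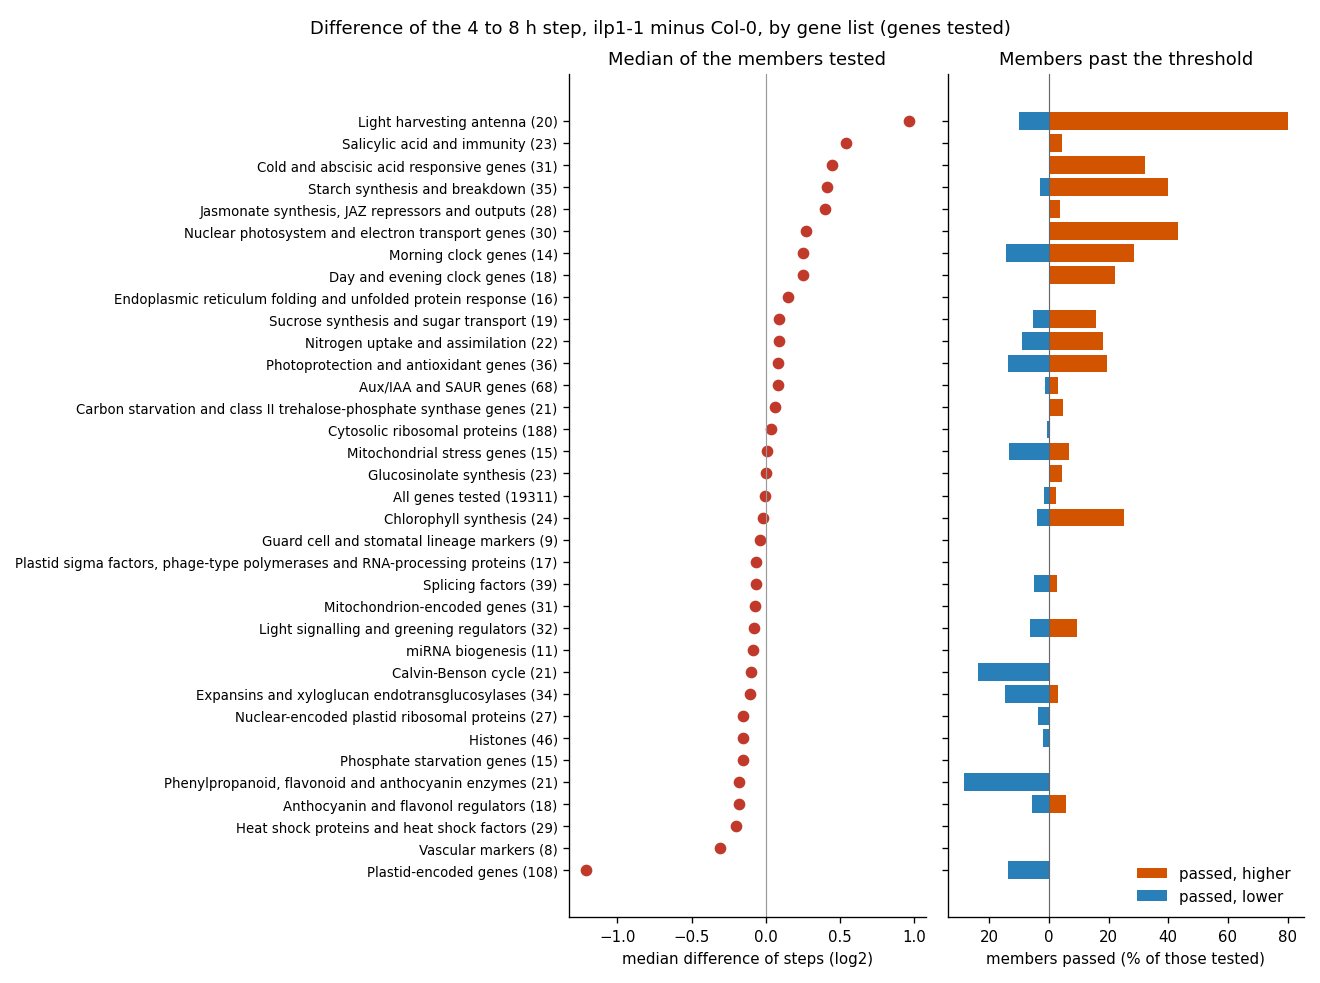
Difference between the steps of ilp1-1 and Col-0 by gene list, with the number of members tested in brackets. The left panel gives the median difference (log2) and the right panel the percentage of members that passed, higher ones drawn to the right and lower ones to the left. Antenna genes had a median of 0.97 with 16 of 20 members higher, and plastid-encoded genes a median of -1.21 with 15 of 108 lower.

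The antenna genes set the genotypes apart most clearly. Of 20 tested, 18 fell over the step in ilp1-1 and 17 in Col-0, most of them by less in ilp1-1. They stood lower in ilp1-1 at 4 h, and the order of the genotypes had turned for several of them by 8 h. Of the 21 antenna genes 1 could not be tested, 16 had a higher difference (against 2.3% of all genes), 2 had a lower one and 2 did not pass. The median difference was 0.97, with a median step of -0.85 in ilp1-1 and -1.72 in Col-0. LHCB1.5 was listed at 0 in every library. Summed over the list, antenna transcripts came to 16689 and 16935 FPKM at 8 h and 31054 and 30359 FPKM at 4 h in ilp1-1, against 15458 and 15221 FPKM at 8 h and 57250.4 and 55306 FPKM at 4 h in Col-0. The summed level was higher in ilp1-1 than in Col-0 at 8 h and lower at 4 h, with no overlap of libraries at either hour.

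The 250 bases before the annotated start of 4 of the antenna genes with the largest differences are shown because these genes share a direction, and so that any clock or light motif in them can be seen. They were read from the RefSeq genome TAIR10.1, run 5′ to 3′ on the gene's strand, and carry in capitals each match on either strand to 8 motifs searched: CACGTG (the G-box), GATAAG (the I-box), AAAATATCT (the evening element), AAAAATCT (a sequence bound by CCA1), CCGAC (the core bound by CBF factors), GAANNTTC (part of heat shock elements), TGGGCC (a site of TCP factors) and TATAAA (the TATA box). AAAATATCT and AAAAATCT do not contain each other.
LHCB1.4 (chr2:14524357-14524606, plus strand): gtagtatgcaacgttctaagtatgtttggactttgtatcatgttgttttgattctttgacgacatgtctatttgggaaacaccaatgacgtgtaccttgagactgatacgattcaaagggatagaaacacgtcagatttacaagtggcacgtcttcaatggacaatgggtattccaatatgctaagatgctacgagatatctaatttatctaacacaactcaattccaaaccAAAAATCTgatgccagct
LHCB1.1 (chr1:10475970-10476219, minus strand): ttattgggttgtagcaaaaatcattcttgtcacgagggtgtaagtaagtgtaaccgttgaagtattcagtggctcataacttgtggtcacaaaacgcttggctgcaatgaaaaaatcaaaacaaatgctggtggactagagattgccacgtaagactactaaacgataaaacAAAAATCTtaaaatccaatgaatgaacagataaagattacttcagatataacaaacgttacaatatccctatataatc
LHCB2.3 (chr3:10255656-10255905, plus strand): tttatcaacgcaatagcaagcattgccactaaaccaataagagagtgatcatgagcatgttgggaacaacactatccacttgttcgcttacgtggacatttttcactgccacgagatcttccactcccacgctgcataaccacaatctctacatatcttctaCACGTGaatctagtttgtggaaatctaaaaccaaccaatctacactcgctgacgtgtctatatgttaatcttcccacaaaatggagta
LHCB2.1 (chr2:1824481-1824730, minus strand): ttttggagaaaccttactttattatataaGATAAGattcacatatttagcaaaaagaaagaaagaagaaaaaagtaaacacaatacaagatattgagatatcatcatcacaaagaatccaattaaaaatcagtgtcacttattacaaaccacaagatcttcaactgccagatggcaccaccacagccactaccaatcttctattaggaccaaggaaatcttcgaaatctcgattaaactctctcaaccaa
LHCB1.4 and LHCB1.1 each held AAAAATCT once, LHCB2.3 held CACGTG and LHCB2.1 held GATAAG. In the same windows of LHCB2.2 and LHCB1.2, the next by size of difference, there was no match to any of the 8. AAAAATCT was found in 3 of the 20 antenna windows (15%) and in 6.85% of the 18142 windows of all protein-coding nuclear genes tested, and CACGTG in 5 (25%) and 7.54%. For the other motifs the antenna and overall shares were 20 and 12.36% (GATAAG), 5 and 2.558% (AAAATATCT) and 15 and 13.22% (CCGAC). They were 5 and 9.415% (GAANNTTC), 10 and 17.2% (TGGGCC) and 35 and 45.7% (TATAAA). A match is a description of the letters only.

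The main antenna complex of photosystem II is built from LHCB1, LHCB2 and LHCB3. LHCB1.4 (AT2G34430, chromosome 2, 14524607 to 14525918, plus strand), whose upstream window is the first of those shown, had 62.2 and 106 FPKM at 8 h and 184 and 208 at 4 h in ilp1-1, against 21.6 and 15.2 at 8 h and 759 and 666 at 4 h in Col-0. In Col-0 the transcript all but vanished relative to its level at 4 h, while in ilp1-1 it kept a larger share, and the difference was the highest of all named genes (3.95 ± 0.30, adjusted p = 1.81e-06). LHCB1.1 (AT1G29920, chromosome 1, 10474656 to 10475969, minus strand) had 587 and 587 FPKM at 8 h and 1627 and 1662 at 4 h in ilp1-1, against 236 and 234 at 8 h and 3894 and 3938 at 4 h in Col-0. Replicates were nearly equal and the order of the genotypes turned between the hours (difference 2.57 ± 0.08, adjusted p = 3.26e-11). LHCB2.3 (AT3G27690, chromosome 3, 10255906 to 10257489, plus strand) had 17.1 and 21.1 FPKM at 8 h and 99.1 and 96.7 at 4 h in ilp1-1, against 9.74 and 10.6 at 8 h and 289 and 287 at 4 h in Col-0, and its steps were -2.31 ± 0.12 in ilp1-1 and -4.70 ± 0.12 in Col-0 (difference 2.39 ± 0.17, adjusted p = 7.63e-07). The ilp1-1 libraries were again the higher ones at 8 h and the lower ones at 4 h.

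LHCB3, the third subunit of the trimers, had 1408 and 1449 FPKM at 8 h and 2766 and 2656 at 4 h in ilp1-1, against 795 and 760.0 at 8 h and 4200.5 and 4005 at 4 h in Col-0. Its difference was 1.47 ± 0.10, adjusted p = 8.91e-07. LHCB2.1 and LHCB2.2 differed by 2.09 and 2.00 and LHCB1.2 by 1.68. LHCB1.3, the most abundant antenna transcript, did not turn: it had 3812 and 3743 FPKM at 8 h and 7015 and 6819 at 4 h in ilp1-1, against 4636 and 4572 at 8 h and 15553 and 15069.5 at 4 h in Col-0. Its difference was 0.86 ± 0.07, adjusted p = 2.69e-06. In it ilp1-1 was lower at both hours, and the gap was smaller at 8 h. Copies of LHCB1 and of LHCB2 are nearly identical, and how reads shared between them were counted is not given in the sources used here, so the split between copies is uncertain. Summed over LHCB1, levels were 5351 and 5389.8 FPKM at 8 h and 10816 and 10659 FPKM at 4 h in ilp1-1, against 5609 and 5543 FPKM at 8 h and 25294 and 24453 FPKM at 4 h in Col-0. Summed over LHCB2, they were 586 and 711 FPKM at 8 h and 2145 and 2129.7 FPKM at 4 h in ilp1-1, against 242 and 244 FPKM at 8 h and 3532 and 3365 FPKM at 4 h in Col-0. The turn of order at 8 h was thus held by the LHCB2 sum. The LHCB1 sum did not turn: at 8 h both ilp1-1 libraries still lay below both of Col-0, though close to them. The turn seen in single LHCB1 copies therefore rests on the uncertain split of reads between copies.

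Among the minor antenna of photosystem II, LHCB4.2 differed by 1.40 ± 0.13, adjusted p = 1.11e-05, LHCB6 by 0.91, LHCB5 by 0.73 and LHCB4.1 by 0.48. The antenna of photosystem I moved the same way, with 1.24 for LHCA4, 1.02 for LHCA1, 0.66 for LHCA3 and 0.57 for LHCA2. Both genes with a lower difference stood outside this pattern. LHCB4.3, an isoform known for its rise in lasting strong light, had 128 and 117 FPKM at 8 h and 106 and 95.1 at 4 h in ilp1-1, against 276 and 266 at 8 h and 124 and 130.4 at 4 h in Col-0. It was high at 8 h in Col-0 alone (difference -0.81 ± 0.11, adjusted p = 0.00028). LHCA6, which links photosystem I to the NDH complex, had 85.3 and 82.1 FPKM at 8 h and 117 and 111 at 4 h in ilp1-1, against 133 and 133 at 8 h and 130.0 and 123 at 4 h in Col-0. Its difference was -0.52 ± 0.09, adjusted p = 0.00368, a fall in ilp1-1 with no step that passed in Col-0. LHCB7 (-0.32 ± 0.13, adjusted p = 0.243) and LHCA5 (-0.03 ± 0.10, adjusted p = 0.937) did not pass. All 16 higher and both lower calls held under each of the 17 alternatives tried.

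**Figure D3:**
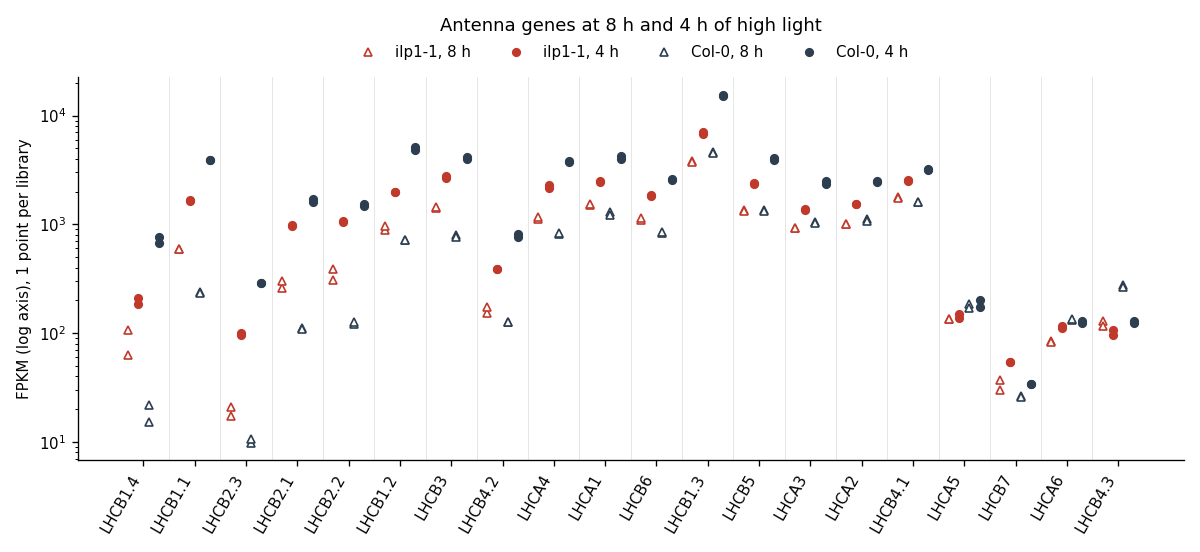
Levels of the 20 antenna genes tested, in FPKM on a log axis, with 1 point per library and genes ordered from the highest to the lowest difference. In most genes the Col-0 points of 4 h are highest and those of 8 h lowest, with both pairs of ilp1-1 between them. For LHCB4.3, at the right end, the Col-0 libraries of 8 h are highest.

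Some subunits of the photosystems and of electron transport also had a higher difference. Of 30 nuclear genes, 13 had a higher difference (against 2.3% of all genes), 0 a lower one (against 1.58%) and 17 did not pass. In 23 of the 30 the value was above 0, and the median was 0.27. PSAO, a small subunit of photosystem I that helps to bind the antenna, had 1289.5 and 1317 FPKM at 8 h and 2053 and 2131 at 4 h in ilp1-1, against 1173 and 1147 at 8 h and 3506 and 3392 at 4 h in Col-0. Its difference was 0.89 ± 0.10, adjusted p = 8.13e-05. The transcript fell in both genotypes, by more in Col-0. PSAD2 (0.89 ± 0.11, adjusted p = 0.000142), at the docking site of ferredoxin, and PSBQ2 (0.80 ± 0.10, adjusted p = 0.000177), of the oxygen-evolving complex, followed that pattern. FNR2, a ferredoxin-NADP reductase, instead rose in both: it had 397 and 386 FPKM at 8 h and 217 and 212 at 4 h in ilp1-1, against 981 and 918 at 8 h and 800.4 and 745 at 4 h in Col-0. Its difference was 0.57 ± 0.08, adjusted p = 0.000511. The count fell to 7 without an intensity trend in the fit, where PSBO1, PSBP1, PSAE2, PSAH1, PSAK and PSAN lost their calls.

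Some genes of chlorophyll synthesis had a higher difference. Of 24 genes, 6 had a higher difference (against 2.3% of all genes), 1 a lower one (against 1.58%) and 17 did not pass. The median was -0.02. PORB (AT4G27440, chromosome 4, 13725546 to 13727440, plus strand), a light-dependent protochlorophyllide reductase, had 111 and 113 FPKM at 8 h and 33.4 and 37.02 at 4 h in ilp1-1, against 255 and 251 at 8 h and 372 and 363 at 4 h in Col-0. It rose in ilp1-1 and fell in Col-0 but remained lower in ilp1-1 at both hours (difference 2.18 ± 0.13, adjusted p = 2.74e-07). CRD1, an enzyme that closes the fifth ring of chlorophyll, had 513 and 531 FPKM at 8 h and 881 and 844 at 4 h in ilp1-1, against 313 and 292 at 8 h and 1063 and 992 at 4 h in Col-0. Its difference was 1.04 ± 0.08, adjusted p = 2.16e-06. CAO, which makes chlorophyll b for the antenna, had 36.7 and 38.3 FPKM at 8 h and 65.8 and 65.9 at 4 h in ilp1-1, against 17.6 and 17.1 at 8 h and 65.8 and 58.7 at 4 h in Col-0. Its difference was 0.99 ± 0.10, adjusted p = 4.29e-05. Both fell in each genotype, and at 8 h their ilp1-1 libraries lay above those of Col-0. CHLP and HEMA1 followed with 0.66 and 0.62, and CHLH with 0.35 ± 0.09, adjusted p = 0.0488, a call that ended without any 1 of 7 libraries. CHLM, a methyltransferase of the pathway, was the lower one, with 105 and 111 FPKM at 8 h and 145 and 150.0 at 4 h in ilp1-1, against 144 and 137 at 8 h and 139 and 141 at 4 h in Col-0. Its difference was -0.45 ± 0.08, adjusted p = 0.00314.

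Some genes of carbon fixation in the Calvin-Benson cycle had a lower difference. Of 21 genes, 0 had a higher difference (against 2.3% of all genes), 5 a lower one (against 1.58%) and 16 did not pass. In 6 of the 21 the value was above 0, and the median was -0.10. RBCS2B, a Rubisco small subunit, had 2104 and 1918 FPKM at 8 h and 2488 and 2358 at 4 h in ilp1-1, against 6626 and 6600.1 at 8 h and 5089.6 and 4885 at 4 h in Col-0. Its difference was -0.68 ± 0.08, adjusted p = 9.02e-05. It fell in ilp1-1 and rose in Col-0. CP12-2, which ties up cycle enzymes in the dark, had 304 and 266 FPKM at 8 h and 313 and 316 at 4 h in ilp1-1, against 1136 and 1159 at 8 h and 732 and 697 at 4 h in Col-0. Its difference was -0.83 ± 0.12, adjusted p = 0.000511, and its step in ilp1-1 did not pass. PRK (-0.38), GAPA1 (-0.31) and PGK1 (-0.27) were the other 3, and the count fell to 2 without an intensity trend and to between 3 and 4 with 1 library left out. RBCS1A, the most abundant small subunit gene, did not pass (-0.06 ± 0.08, adjusted p = 0.826). RBCS copies are near-identical too, and their summed level was 25665 and 23586 FPKM at 8 h and 29640.2 and 28728 FPKM at 4 h in ilp1-1, against 35796 and 35799.8 FPKM at 8 h and 37050.5 and 36121 FPKM at 4 h in Col-0.

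Clock genes were among those with the largest differences. Of 18 genes of the day and evening, 4 had a higher difference and 0 a lower one (median 0.25). Of 14 morning genes, 4 were higher and 2 lower (median 0.25), against 2.3% higher and 1.58% lower among all genes. PRR5 (AT5G24470, chromosome 5, 8356204 to 8358546, minus strand), a repressor of the morning genes that acts late in the day, had 34.6 and 34.98 FPKM at 8 h and 7.45 and 5.22 at 4 h in ilp1-1, against 13.5 and 14.04 at 8 h and 24.6 and 23.6 at 4 h in Col-0. The transcript rose in ilp1-1 and fell in Col-0, with steps of 2.3 ± 0.14 in ilp1-1 and -0.76 ± 0.14 in Col-0 (difference 3.06 ± 0.20, adjusted p = 5.65e-07). At 0, 16 and 30 h the ilp1-1 libraries held 0.191 and 0.423, 6.05 and 5.22, and 2.13 and 2.36 FPKM, and those of Col-0 0.496 and 0.518, 4.14 and 4.09, and 8.39 and 7.36 FPKM. Of the sampled hours, PRR5 was thus highest at 8 h in ilp1-1 and at 4 h in Col-0.

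FKF1 (AT1G68050, chromosome 1, 25508639 to 25510907, plus strand), a blue light receptor of the flowering pathway that peaks at dusk, had 23.8 and 22.1 FPKM at 8 h and 1.02 and 0.689 at 4 h in ilp1-1, against 23.2 and 25.5 at 8 h and 7.23 and 6.64 at 4 h in Col-0. Both genotypes reached a like level at 8 h, from a lower one in ilp1-1 at 4 h (difference 2.02 ± 0.23, adjusted p = 8.69e-05). GRP7 (AT2G21660, chromosome 2, 9265084 to 9266557, minus strand), an RNA-binding protein that is itself under clock control and acts on splicing, had 2896 and 2847 FPKM at 8 h and 289 and 296 at 4 h in ilp1-1, against 3888 and 3703 at 8 h and 998 and 1003 at 4 h in Col-0. Its difference was 1.37 ± 0.13, adjusted p = 2.21e-05. It rose in both genotypes, and ilp1-1 was lower at both hours. Its paralog GRP8 differed by 0.58 ± 0.13, adjusted p = 0.0181, a call that ended without any 1 of 5 libraries. TOC1 (0.27 ± 0.18, adjusted p = 0.534), ELF4 (0.13 ± 0.25, adjusted p = 0.878), LUX (0.07 ± 0.17, adjusted p = 0.916) and GI (0.55 ± 0.23, adjusted p = 0.265), core genes of the evening, did not pass. TOC1 had 28.9 and 32.1 FPKM at 8 h and 4.31 and 4.98 at 4 h in ilp1-1, against 45.4 and 44.00 at 8 h and 10.5 and 7.53 at 4 h in Col-0, so that it rose in both genotypes, with lower levels in ilp1-1.

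The upstream windows of these 3 genes are shown, chosen after their values were seen, because the evening element recurs in them (same build, strand and capitals as above).
PRR5 (chr5:8358547-8358796, minus strand): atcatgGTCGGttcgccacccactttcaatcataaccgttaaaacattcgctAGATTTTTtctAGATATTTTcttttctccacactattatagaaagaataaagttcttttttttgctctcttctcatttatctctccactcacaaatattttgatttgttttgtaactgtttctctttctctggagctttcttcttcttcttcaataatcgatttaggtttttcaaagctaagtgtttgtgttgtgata
GRP7 (chr2:9266558-9266807, minus strand): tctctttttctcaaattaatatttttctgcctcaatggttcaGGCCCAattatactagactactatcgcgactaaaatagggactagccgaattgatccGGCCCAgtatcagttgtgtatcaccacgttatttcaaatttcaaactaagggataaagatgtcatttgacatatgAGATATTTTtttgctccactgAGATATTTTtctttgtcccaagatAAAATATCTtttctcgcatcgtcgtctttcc
FKF1 (chr1:25508389-25508638, plus strand): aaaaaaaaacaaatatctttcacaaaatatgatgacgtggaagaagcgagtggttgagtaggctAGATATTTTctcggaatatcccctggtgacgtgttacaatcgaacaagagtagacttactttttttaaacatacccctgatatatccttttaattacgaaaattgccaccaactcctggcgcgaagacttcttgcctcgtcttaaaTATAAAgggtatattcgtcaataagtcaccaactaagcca
AAAATATCT was found once in the window of PRR5, 3 times in that of GRP7 and once in that of FKF1. It is common in the list they come from: 7 of the 18 windows of day and evening clock genes held it (38.9%). Of these 18 genes, 4 passed and 14 did not, so the element was not confined to genes with a called difference. Over all genes, 54 of the 438 windows of genes with a higher difference held it (12.3%), 2 of the 282 windows of genes with a lower one (0.709%), and 464 of 18142 windows overall (2.56%). The 54 included AT1G20030, PRR5, AT2G15960, PORB, FKF1, MYBL2, GRP7, ISA3 and CAT3, and the other 2 were MENG and FLS1. No test was made on these shares. CACGTG was found in 15.5% of the windows of higher, 12.1% of those of lower and 7.54% of all genes. TGGGCC was found in 11.2, 13.8 and 17.2% of the same 3 groups of windows. The remaining motifs lay nearer the share of all genes. In the same order, GATAAG was found in 12.79, 13.48 and 12.36%, AAAAATCT in 8.904, 5.319 and 6.846%, and CCGAC in 15.3, 11.35 and 13.22%. For GAANNTTC the shares were 7.763, 8.511 and 9.415%, and for TATAAA 44.75, 43.97 and 45.7%.

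Of the morning genes, PRR9, the earliest of the PRR repressors, had 9.37 and 10.9 FPKM at 8 h and 23.3 and 23.8 at 4 h in ilp1-1, against 0.952 and 0.331 at 8 h and 15.7 and 12.6 at 4 h in Col-0. Its difference was 2.08 ± 0.24, adjusted p = 8.95e-05. It fell in both genotypes, to under 1 FPKM at 8 h in Col-0, and ilp1-1 was higher at both hours. LNK2, a coactivator that binds clock MYB proteins, differed by 1.24 ± 0.12, adjusted p = 2.16e-05, and PRR7 by 1.02 ± 0.19, adjusted p = 0.00429, with 23.5 and 24.9 FPKM at 8 h and 26.9 and 24.7 at 4 h in ilp1-1, against 20.8 and 20.3 at 8 h and 47.3 and 43.5 at 4 h in Col-0. CCA1, one of the paired morning repressors, had 3.64 and 3.63 FPKM at 8 h and 26.01 and 24.2 at 4 h in ilp1-1, against 0.103 and 0.130 at 8 h and 12.4 and 9.84 at 4 h in Col-0. Its difference was 0.94 ± 0.24, adjusted p = 0.043, and its call ended under 11 of the 17 alternatives. LHY, its partner, had 0.635 and 0.596 FPKM at 8 h and 7.06 and 8.49 at 4 h in ilp1-1, against 0.0411 and 0 at 8 h and 1.08 and 0.566 at 4 h in Col-0. Levels in Col-0 stood at the floor of the scale at 8 h, and the sign of its difference changed with the setting: it was -1.62 ± 0.19, adjusted p = 0.000117 on log2(FPKM + 1) and 1.49, adjusted p = 0.662 with limma-voom on recovered reads. RVE2, a related MYB factor of the late night, had 6.79 and 4.96 FPKM at 8 h and 0.708 and 0.554 at 4 h in ilp1-1, against 39.2 and 41.2 at 8 h and 1.52 and 1.03 at 4 h in Col-0. Its difference was -2.12 ± 0.31, adjusted p = 0.000678. It rose in both genotypes, far higher in Col-0, and its call ended under 1 of the 17 alternatives (-1.80, adjusted p = 0.238 with limma-voom).

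**Figure D4:**
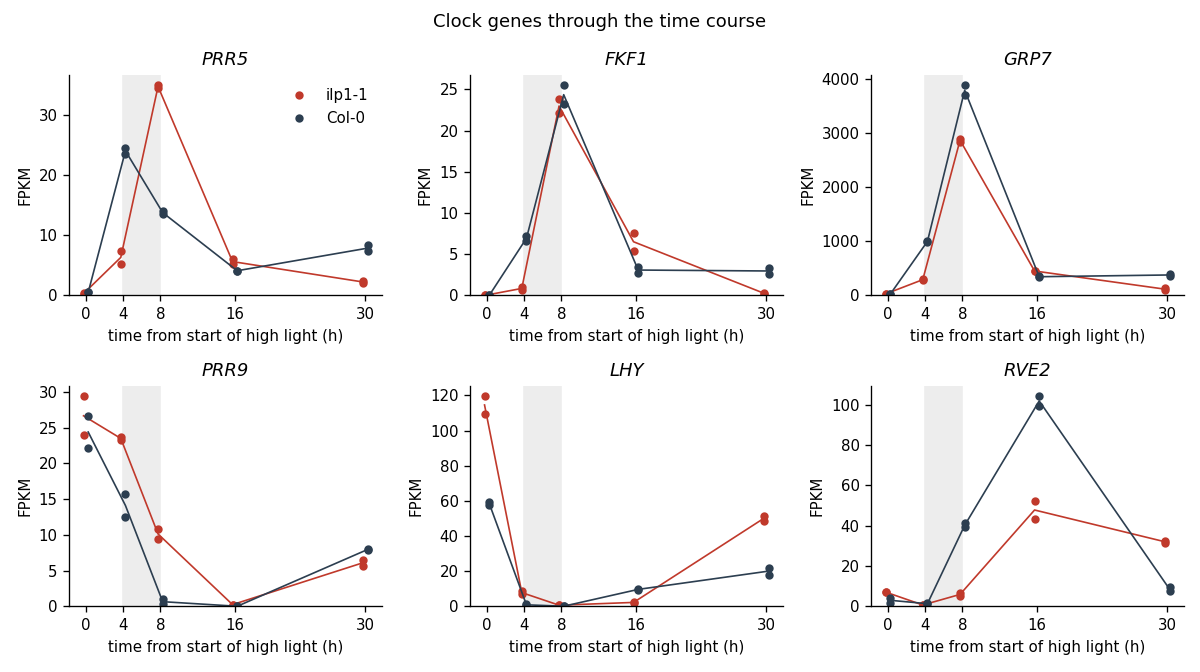
Levels of 6 clock genes in FPKM over the 5 sampled times, with 1 point per library, lines through the means of 2 libraries, and the step from 4 h to 8 h shaded. PRR5 stood highest at 8 h in ilp1-1 and at 4 h in Col-0, and PRR9 at 8 h stood at 9.37 and 10.9 FPKM in ilp1-1, against under 1 FPKM in Col-0.

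Many starch genes had a higher difference. Of 35 genes, 14 were higher (against 2.3% of all genes), 1 lower (against 1.58%) and 20 did not pass. The median was 0.41, with median steps of 0.31 in ilp1-1 and -0.01 in Col-0. Most of the 14 serve starch breakdown. GWD1, the kinase that opens the granule surface to breakdown, had 113 and 111 FPKM at 8 h and 43.3 and 41.05 at 4 h in ilp1-1, against 146 and 135 at 8 h and 121 and 105 at 4 h in Col-0. Its difference was 1.07 ± 0.13, adjusted p = 0.00012. BAM3, the main beta-amylase of leaves, had 903 and 871 FPKM at 8 h and 544 and 537 at 4 h in ilp1-1, against 599.9 and 586 at 8 h and 626 and 598 at 4 h in Col-0. Its difference was 0.76 ± 0.08, adjusted p = 5.5e-05. DPE2, which handles maltose in the cytosol, had 190.5 and 184 FPKM at 8 h and 115 and 111 at 4 h in ilp1-1, against 115 and 117 at 8 h and 147 and 128 at 4 h in Col-0. Its difference was 0.96 ± 0.12, adjusted p = 0.000154. All 3 transcripts rose in ilp1-1, and neither BAM3 nor DPE2 passed in Col-0.

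The debranching enzyme ISA3 (1.11 ± 0.19, adjusted p = 0.00349), the phosphorylases PHS2 (1.20 ± 0.17, adjusted p = 0.000427) and PHS1 (0.89 ± 0.11, adjusted p = 0.000239) and the alpha-amylase AMY3 (0.71 ± 0.13, adjusted p = 0.00474) also rose in ilp1-1. Of the synthesis enzymes, GBSS1 (AT1G32900, chromosome 1, 11920390 to 11923866, minus strand), which makes amylose, had 252 and 255 FPKM at 8 h and 446 and 450.1 at 4 h in ilp1-1, against 27.2 and 21.8 at 8 h and 183 and 168 at 4 h in Col-0. It fell in both genotypes, by far more in Col-0, and ilp1-1 was higher at both hours (difference 1.98 ± 0.14, adjusted p = 1.3e-06). The lower member was BAM9 (-1.07 ± 0.21, adjusted p = 0.00815), a catalytically inactive beta-amylase relative at under 4 FPKM in these 8 libraries, and its call ended with limma-voom (-1.66, adjusted p = 0.0773) and in the fit of the 8 libraries alone (-1.07, adjusted p = 0.0783). The count of higher members fell to 8 without ilp1-1 8 h replicate 1 and to 10 without an intensity trend, and the calls of APL4, SBE2.1, SBE2.2, PGI1, PWD and SEX4 each ended under 1 or more alternatives.

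Sugar transporters and nitrogen assimilation held single large differences. Of 19 genes of sucrose synthesis and sugar transport, 3 were higher and 1 lower, against 2.3% and 1.58% of all genes tested. STP13, a hexose carrier of the plasma membrane, had 23.7 and 24.8 FPKM at 8 h and 8.09 and 8.92 at 4 h in ilp1-1, against 9.51 and 12.5 at 8 h and 24.9 and 19.6 at 4 h in Col-0. Its difference was 2.37 ± 0.31, adjusted p = 0.000296, a rise in ilp1-1 and a fall in Col-0. TST2, a vacuolar sugar carrier, differed by 0.81 ± 0.15, adjusted p = 0.00454. GPT2, the glucose-phosphate translocator that rises in strong light, fell in Col-0 and did not pass in ilp1-1, with 370.4 and 387 FPKM at 8 h and 369.5 and 417 at 4 h in ilp1-1, against 52.4 and 42.9 at 8 h and 132 and 123 at 4 h in Col-0 (difference 1.36 ± 0.29, adjusted p = 0.0129, a call that ended without any 1 of 4 libraries). SWEET12, a sucrose exporter of the phloem, was the lower one (-0.93 ± 0.24, adjusted p = 0.0429), and its call ended under 13 of the 17 alternatives.

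Of 22 nitrogen genes, 4 were higher and 2 lower, against 2.3% and 1.58% of all genes tested. NIR1, nitrite reductase, had 114 and 102 FPKM at 8 h and 164 and 143 at 4 h in ilp1-1, against 125 and 118 at 8 h and 375 and 343 at 4 h in Col-0. Its difference was 1.06 ± 0.15, adjusted p = 0.000504. NIA2, the main nitrate reductase, had 138 and 132 FPKM at 8 h and 185 and 174 at 4 h in ilp1-1, against 76.00 and 72.4 at 8 h and 189 and 172 at 4 h in Col-0. Its difference was 0.86 ± 0.13, adjusted p = 0.00104. Both fell less in ilp1-1. GLN1.1 (0.98) and UPM1 (0.48) were the other higher ones and the glutamine synthetase GLN1.2 (-0.44) and the nitrate transporter NRT1.1 (-0.52) the lower ones. The calls of these 4 ended under 1 or more alternatives, and the count of higher members fell to 2 without Col-0 4 h replicate 1.

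Several cold-regulated genes rose further in ilp1-1 than in Col-0, from lower levels. Of 31 genes known to respond to cold or abscisic acid, 10 had a higher difference and 0 a lower one. The shares of all genes were 2.3% and 1.58%, and the median of the list was 0.44. COR15A (AT2G42540, chromosome 2, 17710441 to 17712330, minus strand), a chloroplast protein that protects membranes, had 985 and 853 FPKM at 8 h and 147 and 145 at 4 h in ilp1-1, against 2029.6 and 1594 at 8 h and 1159.9 and 1215 at 4 h in Col-0. Levels in ilp1-1 were lower at both hours, and the gap was far larger at 4 h (difference 2.05 ± 0.24, adjusted p = 0.000113). Its neighbour COR15B, a near copy, had 198 and 148 FPKM at 8 h and 22.3 and 21.00 at 4 h in ilp1-1, against 655 and 521 at 8 h and 338 and 318 at 4 h in Col-0. Its difference was 2.1 ± 0.25, adjusted p = 0.000104. KIN2 had 1488 and 1309 FPKM at 8 h and 349 and 391 at 4 h in ilp1-1, against 2316 and 2146 at 8 h and 1389.9 and 1341 at 4 h in Col-0. Its difference was 1.21 ± 0.15, adjusted p = 0.000177. These 3 genes rose in both genotypes. How reads shared between COR15A and COR15B were counted is not given in the sources used here, so the split between them is uncertain. CBF3, a transcription factor that activates them, had 14.7 and 15.5 FPKM at 8 h and 7.62 and 7.47 at 4 h in ilp1-1, against 6.97 and 7.29 at 8 h and 17.3 and 17.9 at 4 h in Col-0. Its difference was 2.11 ± 0.19, adjusted p = 1.11e-05, rising in ilp1-1 and falling in Col-0.

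CBF proteins bind the sequence CCGAC, and the upstream window of COR15A, also chosen after its values were seen, is shown for it (same build and capitals).
COR15A (chr2:17712331-17712580, minus strand): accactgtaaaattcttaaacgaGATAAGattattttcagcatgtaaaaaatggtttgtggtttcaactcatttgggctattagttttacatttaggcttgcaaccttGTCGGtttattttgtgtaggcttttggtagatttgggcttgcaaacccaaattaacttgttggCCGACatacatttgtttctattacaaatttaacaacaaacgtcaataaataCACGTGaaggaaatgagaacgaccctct
The window held CCGAC 2 times, 1 on each strand, beside a G-box and an I-box. No match to CCGAC lay in that of COR15B (chr2:17710434-17710683, minus strand). Nearly all of that window lies inside the annotated COR15A gene, so the 2 windows are not alike. CCGAC was found in 9 of the 31 windows of the list (29.0%) and in 13.2% of all windows. RD29A differed by 1.78 ± 0.33, adjusted p = 0.00473 and GOLS3, a galactinol synthase, by 2.28 ± 0.31, adjusted p = 0.000443, with 1.87 and 1.67 FPKM at 8 h and 2.08 and 2.37 at 4 h in ilp1-1, against 0.136 and 0.367 at 8 h and 7.55 and 4.79 at 4 h in Col-0. GOLS3 fell in Col-0 and did not pass in ilp1-1. ERD10, ERD7, COR413IM1 and COR413-PM1 made up the 10, with differences of 0.92, 0.78, 0.77 and 0.52. Each of these 4 calls ended without 1 or more single libraries, and the count fell to 6 without Col-0 8 h replicate 2. Time in high light and time of day move together here, and no treatment with cold was made.

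**Figure D5:**
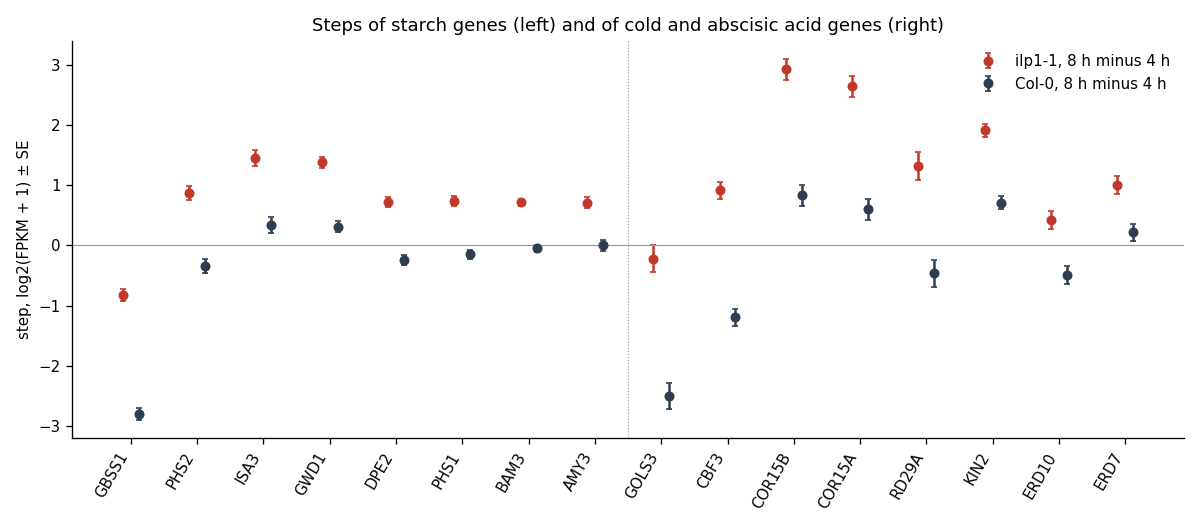
Steps from 4 h to 8 h of 8 starch genes (left of the dotted line) and 8 genes that respond to cold or abscisic acid (right), as differences of log2(FPKM + 1) ± SE of the fit, 2 libraries per group. In each gene the step in ilp1-1 lies above that in Col-0. GBSS1 fell in both genotypes, and COR15A and COR15B rose in both.

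Flavonoid enzymes with a called difference had a lower one, and most did not pass. Of 21 enzymes of the phenylpropanoid, flavonoid and anthocyanin pathways, 0 were higher (against 2.3% of all genes), 6 lower (against 1.58%) and 15 did not pass. In 7 of the 21 the value was above 0. The median was -0.18, with median steps of 0.60 in ilp1-1 and 1.03 in Col-0. TT4, chalcone synthase, the entry enzyme of the pathway, had 2799.9 and 2598 FPKM at 8 h and 1732 and 1795 at 4 h in ilp1-1, against 1253 and 1208 at 8 h and 467 and 506 at 4 h in Col-0. Its difference was -0.73 ± 0.14, adjusted p = 0.00529. FLS1, flavonol synthase, had 479 and 458 FPKM at 8 h and 364 and 371 at 4 h in ilp1-1, against 217 and 194 at 8 h and 90.5 and 85.9 at 4 h in Col-0. Its difference was -0.86 ± 0.15, adjusted p = 0.00264. Both rose in each genotype, and ilp1-1 was higher at both hours by a ratio that was smaller at 8 h. TT5 (-0.77 ± 0.11, adjusted p = 0.00083) and 4CL3 (-0.71 ± 0.14, adjusted p = 0.00626) did likewise, as did CHIL (-0.73) and C4H (-0.45), whose calls ended under 5 and 7 alternatives. Of 18 regulators 1 was higher, 1 lower and 16 did not pass, against 2.3% higher and 1.58% lower among all genes, so these counts are no result about the regulators as a group. MYBL2, a repressor of anthocyanin synthesis, had 22.9 and 21.4 FPKM at 8 h and 10.5 and 9.15 at 4 h in ilp1-1, against 10.2 and 10.7 at 8 h and 23.8 and 17.4 at 4 h in Col-0, a rise in ilp1-1 and a fall in Col-0 (difference 1.99 ± 0.21, adjusted p = 4.93e-05). MYB111, an activator of flavonol synthesis, was the lower one (-1.06 ± 0.23, adjusted p = 0.0156, lost without any 1 of 4 libraries), and PAP2, an activator of anthocyanin synthesis, just missed the threshold (-1.72 ± 0.46, adjusted p = 0.0508).

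Most genes of light signalling did not pass. Of 32, 3 were higher (5 with a filter of 5 FPKM), 2 lower and 27 did not pass (median -0.08), against 2.3% higher and 1.58% lower among all genes, and what follows is said of single genes. HY5, the main transcription factor of light responses, had 22.1 and 24.2 FPKM at 8 h and 25.7 and 27.02 at 4 h in ilp1-1, against 25.2 and 25.5 at 8 h and 9.98 and 10.5 at 4 h in Col-0. Its difference was -1.41 ± 0.16, adjusted p = 7.4e-05. Its step in ilp1-1 did not pass, and at 8 h the levels of Col-0 lay close to those of ilp1-1. GLK2, an activator of antenna and chlorophyll genes, had 24.4 and 29.6 FPKM at 8 h and 43.2 and 43.5 at 4 h in ilp1-1, against 13.8 and 15.2 at 8 h and 75.5 and 64.8 at 4 h in Col-0. Its difference was 1.53 ± 0.18, adjusted p = 9.96e-05, a fall in both that was larger in Col-0. BBX28 (1.89 ± 0.27, adjusted p = 0.000669) and BBX22 (1.19 ± 0.18, adjusted p = 0.000832), B-box proteins that act with HY5, were the other higher ones, and HYH, a relative of HY5, the other lower one (-0.58 ± 0.14, adjusted p = 0.0316, lost without any 1 of 7 libraries).

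Of 36 genes of photoprotection and antioxidant defence, 7 were higher and 5 lower, against 2.3% and 1.58% of all genes tested. ELIP1 (AT3G22840, chromosome 3, 8084405 to 8085669, minus strand), an early light-induced protein of the thylakoid, had 2229 and 2231 FPKM at 8 h and 2636 and 2585 at 4 h in ilp1-1, against 326 and 252 at 8 h and 98.8 and 107 at 4 h in Col-0. It rose in Col-0 and did not pass in ilp1-1, where it was higher at both hours (difference -1.70 ± 0.19, adjusted p = 6.96e-05). SEP2, of the same wider family, had 81.9 and 89.6 FPKM at 8 h and 123 and 129.7 at 4 h in ilp1-1, against 112 and 106 at 8 h and 80.7 and 65.2 at 4 h in Col-0. Its difference was -1.13 ± 0.12, adjusted p = 5.5e-05. FTSH8, a protease of photosystem II repair, had 53.5 and 54.6 FPKM at 8 h and 103 and 97.5 at 4 h in ilp1-1, against 36.2 and 34.1 at 8 h and 37.5 and 37.6 at 4 h in Col-0. Its difference was -0.79 ± 0.11, adjusted p = 0.000761. SEP2 and FTSH8 fell in ilp1-1. CAT2, the catalase of leaf peroxisomes, had 303 and 308 FPKM at 8 h and 724 and 709 at 4 h in ilp1-1, against 99.2 and 102 at 8 h and 495 and 443 at 4 h in Col-0. Its difference was 0.98 ± 0.11, adjusted p = 5.5e-05, a fall in both that was larger in Col-0. VDE, violaxanthin de-epoxidase of the xanthophyll cycle, had 24.9 and 21.2 FPKM at 8 h and 11.8 and 11.4 at 4 h in ilp1-1, against 35.4 and 32.96 at 8 h and 34.9 and 32.4 at 4 h in Col-0. Its difference was 0.91 ± 0.14, adjusted p = 0.00134. GPX1 differed by 0.69 ± 0.11, adjusted p = 0.00195. The calls of CAT3, ZEP, CAT1 and BCH2 (higher) and of PSY and BCH1 (lower) each ended under 1 or more alternatives, and the count of higher members fell to 3 without ilp1-1 8 h replicate 2, and that of lower ones to 3 without Col-0 8 h replicate 1.

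Many plastid-encoded transcripts fell in ilp1-1 from a raised level, 59 of 108 in that genotype and 0 in Col-0. Over all genes tested, 6.66% fell in ilp1-1 and 7.06% in Col-0. The median plastid-encoded level at 4 h was 1.70 and 1.97 FPKM in Col-0, against 13.9 and 30.7 in ilp1-1. With a pseudocount of 1, most of these genes thus had little room for a detectable fall in Col-0. In libraries of poly-A RNA these transcripts are a small remainder: they took 0.0995 and 0.129% of reads at 8 h and 0.203 and 0.453% at 4 h in ilp1-1, against 0.0206 and 0.0255% at 8 h and 0.0229 and 0.0252% at 4 h in Col-0. Of 134 plastid-encoded genes 108 could be tested. Of these, 0 were higher (against 2.3% of all genes), 15 lower (against 1.58%) and 93 did not pass, with a median of -1.21. The median step was -1.31 in ilp1-1 and 0.00 in Col-0. NDHF, a subunit of the NDH complex, had 1.03 and 1.22 FPKM at 8 h and 3.49 and 7.36 at 4 h in ilp1-1, against 0.376 and 0.443 at 8 h and 0.175 and 0.0752 at 4 h in Col-0. Its difference was -1.85 ± 0.34, adjusted p = 0.00443. PSBN, known for photosystem II assembly, had 10.4 and 7.72 FPKM at 8 h and 18.6 and 36.5 at 4 h in ilp1-1, against 3.73 and 2.69 at 8 h and 1.19 and 0.638 at 4 h in Col-0. Its difference was -2.58 ± 0.60, adjusted p = 0.0227. PSAJ, a small subunit of photosystem I, had 95.97 and 95.9 FPKM at 8 h and 163 and 266 at 4 h in ilp1-1, against 73.9 and 79.9 at 8 h and 67.9 and 80.5 at 4 h in Col-0. Its difference was -1.17 ± 0.29, adjusted p = 0.0369. In all 3 the ilp1-1 libraries of 4 h stood highest and differed from each other.

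The count of 15 plastid-encoded calls changed with most settings. With all libraries kept it was 1 with limma-voom on recovered reads, 4 with a pseudocount of 0.1, 6 without a filter on low values, 7 without an intensity trend and 9 in a fit of the 8 libraries of 4 h and 8 h alone. Leaving out 1 library gave 2 without ilp1-1 4 h replicate 2 and 41 without ilp1-1 4 h replicate 1, the other library of that group. It gave 6 without ilp1-1 8 h replicate 1, 9 without ilp1-1 8 h replicate 2, 7 without either Col-0 library of 4 h and 5 without either Col-0 library of 8 h. The ilp1-1 libraries of 4 h, with 0.203 and 0.453% of reads, differed by more than those of any other. NDHJ (-2.06 ± 0.51, adjusted p = 0.0326) and the transfer RNA gene TRNI.2 (-2.84 ± 0.61, adjusted p = 0.0143) completed the 4 plastid genes named by rule. The call of NDHF ended with limma-voom alone among the fits that hold it, that of TRNI.2 under 5 alternatives, that of PSBN under 7, that of PSAJ under 9 and that of NDHJ under 10. Poly-A selection captures plastid transcripts poorly, and its part in the result was not tested. Of 31 mitochondrion-encoded genes, 0 passed in either direction.

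Among the 12 highest nuclear differences that stood in no group above, CIPK20 (AT5G45820, chromosome 5, 18586870 to 18588792, minus strand), a kinase that binds calcineurin B-like calcium sensors, had 4.37 and 4.20 FPKM at 8 h and 12.1 and 10.5 at 4 h in ilp1-1, against 1.32 and 1.22 at 8 h and 44.5 and 39.7 at 4 h in Col-0. Its difference was 3.03 ± 0.19, adjusted p = 4.57e-07, a fall in both that was larger in Col-0. LEA2, an embryogenesis-abundant protein, had 14.6 and 11.7 FPKM at 8 h and 92.9 and 81.9 at 4 h in ilp1-1, against 6.98 and 3.22 at 8 h and 246 and 225 at 4 h in Col-0. Its difference was 2.70 ± 0.32, adjusted p = 0.00012. It too fell in both genotypes, and ilp1-1 was the higher one at 8 h. AT1G20030, a thaumatin-like protein, had 17.9 and 16.6 FPKM at 8 h and 4.77 and 2.88 at 4 h in ilp1-1, against 6.47 and 5.67 at 8 h and 16.9 and 19.4 at 4 h in Col-0. It rose in ilp1-1 and fell in Col-0 (difference 3.39 ± 0.33, adjusted p = 2.18e-05). AT1G70640, a protein with a PB1 domain, rose in ilp1-1 and did not pass in Col-0 (difference 2.86 ± 0.30, adjusted p = 4.16e-05), and AT2G15960, annotated as stress-induced, rose in ilp1-1 and fell in Col-0 (2.74 ± 0.40, adjusted p = 0.000696). AT1G07050, of the CCT motif family, had 62.00 and 59.6 FPKM at 8 h and 2.45 and 1.96 at 4 h in ilp1-1, against 88.1 and 85.7 at 8 h and 24.8 and 25.4 at 4 h in Col-0. Its difference was 2.52 ± 0.23, adjusted p = 1.19e-05. An unnamed transcript model on chromosome 1 (25990205 to 25992306) had 25.6 and 19.1 FPKM at 8 h and 0.345 and 0.0619 at 4 h in ilp1-1, against 77.2 and 62.4 at 8 h and 18.4 and 21.1 at 4 h in Col-0 (2.51 ± 0.29, adjusted p = 0.000104). Both rose in each genotype, from lower levels in ilp1-1 at 4 h. AT4G18422, an uncharacterised protein, differed by 3.27 ± 0.56, adjusted p = 0.00276 and lost its call with a pseudocount of 0.1.

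Of the 12 lowest nuclear differences, JMJ30 (AT3G20810, chromosome 3, 7275645 to 7278420, plus strand), a histone demethylase with a known role in the clock, had 11.8 and 9.71 FPKM at 8 h and 0.682 and 0.667 at 4 h in ilp1-1, against 71.2 and 70.1 at 8 h and 2.27 and 2.40 at 4 h in Col-0. Its difference was -1.62 ± 0.19, adjusted p = 0.000113. BT2, a BTB and TAZ domain protein of nitrogen and sugar responses, had 0.993 and 1.11 FPKM at 8 h and 0.120 and 0.155 at 4 h in ilp1-1, against 6.64 and 6.95 at 8 h and 0.209 and 0.289 at 4 h in Col-0. Its difference was -1.79 ± 0.26, adjusted p = 0.000812. Both rose in each genotype to a far higher level in Col-0, from low values, and with limma-voom neither passed (-0.94, adjusted p = 0.313 for JMJ30 and -1.88, adjusted p = 0.326 for BT2). UPOX, a marker of oxidative stress in mitochondria, had 76.3 and 83.2 FPKM at 8 h and 148 and 159.6 at 4 h in ilp1-1, against 18.5 and 19.01 at 8 h and 10.2 and 10.8 at 4 h in Col-0. Its difference was -1.72 ± 0.30, adjusted p = 0.00349, a fall in ilp1-1 from a raised level. AT3G28270, a putative transmembrane protein, had 6.69 and 10.3 FPKM at 8 h and 11.6 and 14.6 at 4 h in ilp1-1, against 19.3 and 21.5 at 8 h and 7.70 and 6.48 at 4 h in Col-0. Its difference was -1.99 ± 0.26, adjusted p = 0.000255. AT1G30250 (-2.08 ± 0.25, adjusted p = 0.000113) and AT5G66490 (-1.74 ± 0.27, adjusted p = 0.00135) are uncharacterised. AT2G03130, of a ribosomal protein L12 family, was nearly absent from Col-0 and fell in ilp1-1, with 2.16 and 2.17 FPKM at 8 h and 10.2 and 10.1 at 4 h in ilp1-1, against 0 and 0.151 at 8 h and 0 and 0 at 4 h in Col-0. Its difference was -1.92 ± 0.23, adjusted p = 0.000105. The precursor gene MIR864A (-3.09 ± 0.55, adjusted p = 0.00402) and AT2G03130 lost their calls with a pseudocount of 0.1 and with limma-voom, and the bHLH factor BHLH162 (-1.70 ± 0.43, adjusted p = 0.0374) lost its call without any 1 of the 8 libraries.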

How the data were processed

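Poly-A RNA of whole leaves was sequenced in 20 libraries with a dUTP protocol, per the labels, of which the comparison uses 8. The authors deposited FPKM values for 33104 genes in 10 tables. HISAT2 2.0.5, featureCounts 1.5.0-p3 and TAIR10 are named in the submitters' processing notes. The sources used here do not give their options or strand setting, so overlapping and antisense genes cannot be told apart. FPKM times gene length gave whole reads within a tolerance of 0.001 in every library, and the denominators followed size factors shared by all 20 libraries.

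A gene was kept (19311 in all) if 2 or more libraries had it at 1 FPKM or above. Its log2(FPKM + 1) was fitted with 10 group means over the 20 libraries in limma 3.58.1 under R 4.3.3, with moderated variances that follow the mean level. Residual degrees of freedom numbered 10, and prior ones 5.12 in the median. The pseudocount understates changes at low levels. Threshold: Benjamini-Hochberg adjusted p of 0.05. The fit was tested on simulated data, where it recovered 58% of 2-fold and 14% of 1.5-fold differences (100 genes each). Only these genes were changed there, fewer than the 749 called in the data, and the noise was normal. The adjusted threshold was thus not the same, and the rates need not hold for the data. Members, 35 gene lists and tests were chosen with earlier results of these data known. ILP1 is named first, then the 12 highest and 12 lowest nuclear and 4 plastid-encoded calls (mean of at least 5 FPKM in 1 group, same sign in all 16 choices of 1 library a group), then up to 6 members of each list by adjusted p; other members are given by their values. Gene starts were the same in the files and in RefSeq's TAIR10.1 for 99.95% of 32548 nuclear genes. The 17 alternatives changed pseudocount, filter, scaling, model, trend, libraries, replicate block or, added after the data were seen, kept nuclear genes alone. Python 3.11.15 was used for tables and figures.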

Additional observations from a re-analysis of the deposited data

Results flagged for a closer look

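The step from 4 h to 8 h differed between ilp1-1 and Col-0 in 749 genes by the test of the difference itself. In 45 genes the transcript rose in ilp1-1 and fell in Col-0 with each step passing on its own, PRR5, PORB, STP13, MYBL2 and CBF3 among them. In 25 genes it fell in ilp1-1 and rose in Col-0, RBCS2B, SEP2 and UPOX among them. With 2 libraries a group, no single library can be set apart within its group.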

How the results depend on the processing

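Of the 749 calls, 314 held under each of the 17 alternatives, where a gene absent from a fit was counted as not held. The fit to nuclear genes leaves out the 15 plastid-encoded ones, and the filter of 5 FPKM leaves out genes of low level. Of the 166 named genes that passed, 90 kept the call under every alternative that included them, so the 2 counts follow unlike rules. LHY alone of these 166 changed sign (1.49, adjusted p = 0.662 with limma-voom), with levels at the floor in Col-0. The number of lower calls fell to 187 without an intensity trend, against 305 (the cause was not tested), and all other settings with all 8 libraries kept the total and the higher and lower counts over all genes within 1.5 times those reported (658 to 821 in total outside the fit without a trend, which gave 509). Counts within lists moved further: lower plastid-encoded genes numbered between 1 and 16 under the settings that keep all 8 libraries and hold these genes, against 15, and higher genes of light signalling numbered 5 with a filter of 5 FPKM, against 3. Without an intensity trend the lists of the photosystems, of the Calvin-Benson cycle and of photoprotection also moved by over 1.5 times. Leaving out 1 library gave between 469 and 648 calls in total, between 272 and 419 higher and between 174 and 231 lower, with 0 sign changes among the 749. The difference of ILP1 changed sign in 4 of these fits, with values between -0.11 and 0.0337 and none that passed. Share of higher calls was 59.3%, and 45.3% with total-read scaling, where the median of all genes was -0.06. Kept to nuclear genes, the fit gave 735 calls. Replicate numbers did not pair the libraries (correlation of deviations between -0.02 and 0.03 over the 6 pairs of groups), and the replicate block gave 720 calls, 428 higher and 292 lower. In simulated data with 2 libraries a group and few genes changed, most 1.5-fold differences were not detected.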

Other observations

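Some genes of cell wall proteins had a lower difference. Of 34 expansin and xyloglucan endotransglucosylase genes tested, 5 were lower (against 1.58% of all genes), 1 higher (against 2.3%) and 28 did not pass. In 14 of the 34 the value was above 0, and the median was -0.11. XTH4, which cuts and rejoins xyloglucan, had 29.6 and 31.2 FPKM at 8 h and 58.1 and 62.5 at 4 h in ilp1-1, against 31.6 and 33.6 at 8 h and 38.9 and 35.2 at 4 h in Col-0. Its difference was -0.79 ± 0.12, adjusted p = 0.000899. XTH6 had 41.02 and 42.2 FPKM at 8 h and 71.2 and 71.2 at 4 h in ilp1-1, against 52.02 and 48.2 at 8 h and 50.7 and 44.1 at 4 h in Col-0. Its difference was -0.84 ± 0.17, adjusted p = 0.00779. Both fell in ilp1-1 and did not pass in Col-0. The other lower members were EXPA11, XTH7 and XTH28, whose calls ended under 1 or more alternatives, and the count fell to 3 without Col-0 4 h replicate 2. Of 15 mitochondrial stress genes, 1 was higher and 2 lower, with a median of 0.01 and against 2.3% higher and 1.58% lower among all genes. NDA1, an alternative NADH dehydrogenase, fell less in ilp1-1 (1.32 ± 0.13, adjusted p = 2.97e-05), and its call held under each of the 17 alternatives, as did that of UPOX. AT2G18193 fell in ilp1-1 (-1.47 ± 0.27, adjusted p = 0.00483), a call that ended with limma-voom (-2.27, adjusted p = 0.289).

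In the lists that follow, single calls stand against 2.3% higher and 1.58% lower among all genes tested and are read as no result about a list. The lists of salicylic acid and immunity (23 genes, median 0.54) and of jasmonate (28 genes, median 0.40) had 1 higher call each, WRKY33 (1.27 ± 0.24, adjusted p = 0.00664), a transcription factor of defence, and AOC3 (1.09 ± 0.29, adjusted p = 0.0469), an enzyme of jasmonate synthesis whose call ended under 12 alternatives. Calls numbered 0 in limma for 29 heat shock genes, 16 genes of the unfolded protein response, 11 of miRNA biogenesis, 15 of phosphate starvation and 17 of plastid gene expression. Cytosolic ribosomal proteins (188), nuclear-encoded plastid ribosomal proteins (27) and histones (46) had 1 lower call each. The value was above 0 in 118 of the 188 (median 0.04), in 2 of the 27 (median -0.15) and in 10 of the 46 (median -0.16). Over all genes tested it was above 0 in 9368 of 19311. These shares were not tested. Carbon starvation (21) and glucosinolate genes (23) had 1 higher call each, and Aux/IAA and SAUR genes (68) 2 higher and 1 lower, shares near those of all genes. Of 39 splicing factors, 1 was higher and 2 lower, RS40 (0.51 ± 0.13, adjusted p = 0.0335), RSZ22A (-0.59 ± 0.12, adjusted p = 0.00776) and MOS4 (-0.45 ± 0.11, adjusted p = 0.0351), of which RSZ22A held under each alternative. Of protein-coding nuclear genes without introns, 2.07% were higher and 1.95% lower, and of those with 9 or more introns 2.05 and 0.968%, while the median SE was 0.28 in the first class and 0.18 in the second, so that the classes differ in precision.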
